A study of Mus musculus with 14 samples.

Results

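Binding of CTCF and acetylation of histone H3 at lysine 27 (H3K27ac) were followed around 10 genes that mark or direct the neural and endoderm lineages in mouse cells. The neural genes were Nes, Olig2, Pax6, Sox1 and Zic2, and the endoderm genes were Sox17, Foxa2, Gata6, Sox7 and Afp. Peaks within 100 kb of an annotated start site of a gene were assigned to that gene. Peaks of the 8 CTCF lists that overlapped by at least 1 bp were merged into sites, which gave 98 sites near the 10 genes among 86652 sites in the genome. Of the 98 sites, 63 lay near the neural genes and 35 near the endoderm genes. Sox7 is described apart, because it lies between 40 and 70 Mb of chromosome 14, where the signal of the mutant was lower at most sites. Counts over the 10 genes or the endoderm genes include Sox7 unless stated.

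CTCF is a zinc finger protein that binds a long DNA motif, blocks the cohesin complex as it extrudes chromatin loops, and so helps to set which enhancers meet which promoters. The neural lineage starts in the ectoderm under transcription factors of the Sox, Pax and Zic families, and the endoderm, which forms gut, liver and yolk sac, starts under Sox17, the forkhead factor Foxa2 and the GATA factors. H3K27ac marks active promoters and enhancers, and most regulators of a lineage lack it until that lineage is specified.

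The cells were E14Tg2A mouse embryonic stem cells (mESCs) with wild-type CTCF (WT), or the same line in which CRISPR/Cas9 changed lysine 20 of CTCF to arginine (K20R). Day 0 samples were mESCs grown over mitomycin C-inactivated feeder fibroblasts with serum, leukemia inhibitory factor (LIF) and the 2i inhibitors, and day 4 samples were embryoid bodies (EBs), aggregates formed in hanging drops with serum and without LIF. CTCF chromatin immunoprecipitation sequencing (ChIP-seq) was available as 2 libraries of each genotype on each day, and H3K27ac ChIP-seq as 1 library of each genotype at day 4. The comparisons ask whether the change of lysine 20 alters where CTCF binds before and after differentiation. The number of clones behind each genotype was not given in the sources used here, so genotype and clone cannot be told apart. Feeder fibroblasts were part of the day 0 cultures of both genotypes.

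The CTCF lists held 51905 to 77657 peaks at day 0 and 41360 to 61436 at day 4, and the H3K27ac lists held 38982 peaks in WT and 45318 in K20R. The longest list was that of WT library 1 at day 0, and WT library 2 of the same day held 52698 peaks. Each peak carries a fold enrichment, the pile-up of fragments at its summit over the local background. A whole number of fragments was sought that meets both the fold enrichment and the p-value of a peak. It was 5 to 8 at the weakest peaks near the 10 genes, depending on the library. At the strongest peaks with a −log10 p under 200 it was 89 to 126, and peaks past that limit were given no fragment number. A pile-up of 7 fragments has a 95% exact Poisson interval of 2.81 to 14.4, which covers counting error only, so presence or absence of the weakest peaks is poorly fixed. In the day 4 EBs the pluripotency genes Pou5f1, Nanog and Zfp42 had H3K27ac within 3 kb of a start site in both genotypes. Their strongest such peaks were at 7.88-fold, 11.1-fold and 3.27-fold in WT and at 6.07-fold, 3.08-fold and 4.98-fold in K20R. Klf4 had a peak in K20R only, at 3.29-fold, and Esrrb in neither. The primitive streak genes T, Eomes and Fgf8 had such a peak in WT only, at 3.55-fold, 3.53-fold and 6.91-fold, and Mixl1 and Mesp1 in neither genotype. The median of the whole list was 3.24-fold in WT and 3.25-fold in K20R. Over the genome 36.9% of WT peaks had no overlapping K20R peak, and 46.9% of K20R peaks had no WT peak. All 4 housekeeping genes (Actb, Gapdh, Eef1a1, Rpl13a) had such peaks in both.

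A CTCF motif built from the top 1000 peaks by strength in both WT lists of day 0 had the 19-base consensus CGGCCACCAGGGGGCGCTG. The best match within 100 bp of the summit is shown for sites that the results turn on, from mm10, 5′ to 3′, with the 19 matched bases in capitals and 5 flanking bases on each side. Shown are 3 sites of Pax6 and 3 of Foxa2 that rose with differentiation in at least 1 genotype or appeared in WT, 4 sites whose strength differed between genotypes, and 3 sites that K20R lists lacked.
Pax6 site 5: cgctgAGGGCGAGAGGTGGCGCTAgttca
Pax6 site 2: aaatgCAAACACCAGGAGGCGCCTttgca
Pax6 site 4: tctttGCCTCGCCAGGGGCCGCTCtcggg
Foxa2 site 3: agaagGATGCGACAGGGGGCGCTCtagag
Foxa2 site 7: atgtcTGTCCACTAGATGACGCAAgtgca
Foxa2 site 5: tacctTTGTCACTAGGTGGCAGGAcagga
Nes site 18: atgctTAGCCACCAGGGGGCTCTCttgag
Olig2 site 7: ccatgCCCCCACCTGGGGGCGCTAccgcc
Sox17 site 3: ggtgcAGAGCGCTGGGGGGCGCCAggatc
Afp site 4: cactcTGCCCGCCAGAGGGCACTCtagaa
Olig2 site 5: cctcgATGCCACAAGGTGGCAGGAgagaa
Sox1 site 4: cagacAAACCAGAAGAGGGCGTCAgatcc
Nes site 6: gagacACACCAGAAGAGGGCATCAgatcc
The Pax6 stretches lie at chr2:105687733-105687761, chr2:105616588-105616616 and chr2:105672394-105672422, all on the plus strand. Those of Foxa2 lie at chr2:148082466-148082494 (minus), chr2:148112112-148112140 (minus) and chr2:148108478-148108506 (plus). The next 4 lie at chr3:87970256-87970284 (plus), chr16:91224873-91224901 (plus), chr1:4492099-4492127 (plus) and chr5:90500919-90500947 (minus). The last 3 lie at chr16:91217268-91217296, chr8:12419669-12419697 and chr3:87917175-87917203, all on the minus strand and all masked as repeats in the reference. Of the 19 bases, 15 met the consensus at Nes site 18 and Olig2 site 7 against 9 at Nes site 6.

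Fewer CTCF peaks lay near the 10 genes in K20R than in WT on both days. At day 0 the WT libraries held 79 and 58 peaks and the K20R libraries 48 and 50. At day 4 the WT libraries held 69 and 72 peaks and the K20R libraries 46 and 50. The groups did not overlap on either day, and the WT day 0 libraries differed from each other by more than the K20R libraries did. Whole lists were shorter in the mutant too. In mESCs they held 52076 and 51905 peaks (WT 77657 and 52698), and in EBs 41360 and 47463 (WT 61088 and 61436). The share of a list near the 10 genes was 0.0922% and 0.0963% for mutant mESCs (WT 0.102% and 0.110%). For mutant EBs it was 0.111% and 0.105% (WT 0.113% and 0.117%). These shares were lower in the mutant without overlap. The difference in peak number near the 10 genes was −19.5 at day 0 and −22.5 at day 4. Each had a two-sided exact permutation p of 0.333, the smallest that 2 libraries against 2 allow. The genotype effect at day 4 exceeded that at day 0 by −3 peaks (p = 1, exact permutation of labels within day, 36 arrangements, smallest possible p 0.0556). When every list was shortened to its 41360 strongest peaks, the length of the shortest list, the differences were −4.5 (p = 0.333, exact permutation) and −3 (p = 0.667, exact permutation), and the effect across days was 1.5. Without WT library 1 of day 0 the day 0 difference was −9, and without WT library 2 it was −30.

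The neural genes held most of the difference at day 0. Their WT libraries had 49 and 38 peaks at day 0 and the K20R libraries 27 and 26, a difference of −17 (exact permutation p = 0.333). At day 4 the same genes had 42 and 42 peaks in WT and 26 and 28 in K20R. The endoderm genes had 30 and 20 peaks in WT and 21 and 24 in K20R at day 0, which overlap, and 27 and 30 against 20 and 22 at day 4, which do not. For the endoderm genes the difference was −2.5 at day 0 (exact permutation p = 1) and −7.5 at day 4 (p = 0.333). Without Sox7 it was −1.5 and −6.5.

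Nes held by far the most peaks, with 25 and 18 in WT and 14 and 14 in K20R at day 0, and 22 and 22 against 13 and 16 at day 4. Zic2 held 6 peaks in each of the 4 WT libraries, 3 in each K20R library at day 0 and 2 in each at day 4. The other 8 genes held 2 to 9 peaks in any library. At day 0, 4 of the 10 genes (Nes, Olig2, Sox1 and Zic2) had fewer peaks in both K20R lists than in both WT lists, against 26.1% of protein-coding genes. At day 4, 8 of 10 did, all but Sox17 and Gata6, against 61.2% of protein-coding genes. No member had more peaks in both K20R lists on either day, which held for 0.155% of protein-coding genes at day 0 and 0.182% at day 4. Fewer peaks near most of these genes at day 4 was thus also the state of most genes.

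**Figure D1:**
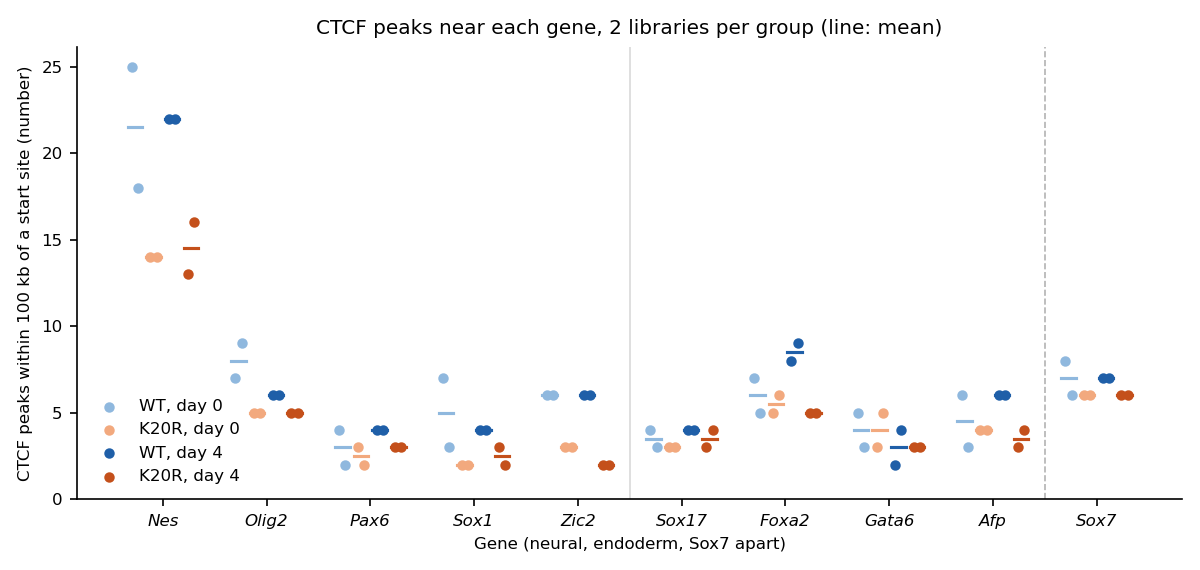
Number of CTCF peaks within 100 kb of a start site of each gene (y axis) in each of the 8 libraries (points, 2 per group; short lines are means), with Sox7 right of the dashed line. Nes ranges from 13 to 25 peaks, and the WT and K20R points of Zic2 are apart on both days.

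Sites were then followed one by one through the lists. A site was counted as lost in K20R on a day if both WT lists and no K20R list held it, and as gained if the reverse held. At day 4, 16 of the 66 sites that both WT lists held were lost in K20R (24.2%), where 18.8% were lost over the genome. They comprised 10 of 40 neural sites (25%) and 6 of 26 endoderm sites (23.1%), or 6 of 20 (30%) without Sox7. No site was gained among the 42 that both K20R lists held, where the genome share was 0.536%. At day 0, 7 of 52 sites were lost (13.5%; genome 7.69%), all of them neural, and 0 of 44 were gained (genome 0.426%). The day 0 losses lay near Nes (3), Zic2 (2), Olig2 (1) and Sox1 (1). None of the 20 endoderm sites (14 without Sox7) that both WT lists held at that day was lost. With lists of one length 2 sites were lost at day 0 and 5 at day 4, and with windows of 50 kb 7 were lost at day 4.

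A site can be lost on both days only if both WT lists hold it on both days. Of the 7 sites lost at day 0, 6 were in both WT lists at day 4. Olig2 site 5, Sox1 site 4 and Zic2 site 6 were lost on both days, and 3 of the 7 sites lost at day 0 were present in at least 1 K20R list at day 4. Among the 16 lost at day 4, 5 were in both WT lists at day 0 and 2 in both K20R lists at day 0. The 16 sites lost at day 4 lay near 8 of the 10 genes, all but Gata6 and Sox7, as the map of sites shows, and 3 of the 16 lay under H3K27ac peaks of both genotypes (Nes sites 6 and 7, Zic2 site 1), as did 7 of the 41.

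**Figure D2:**
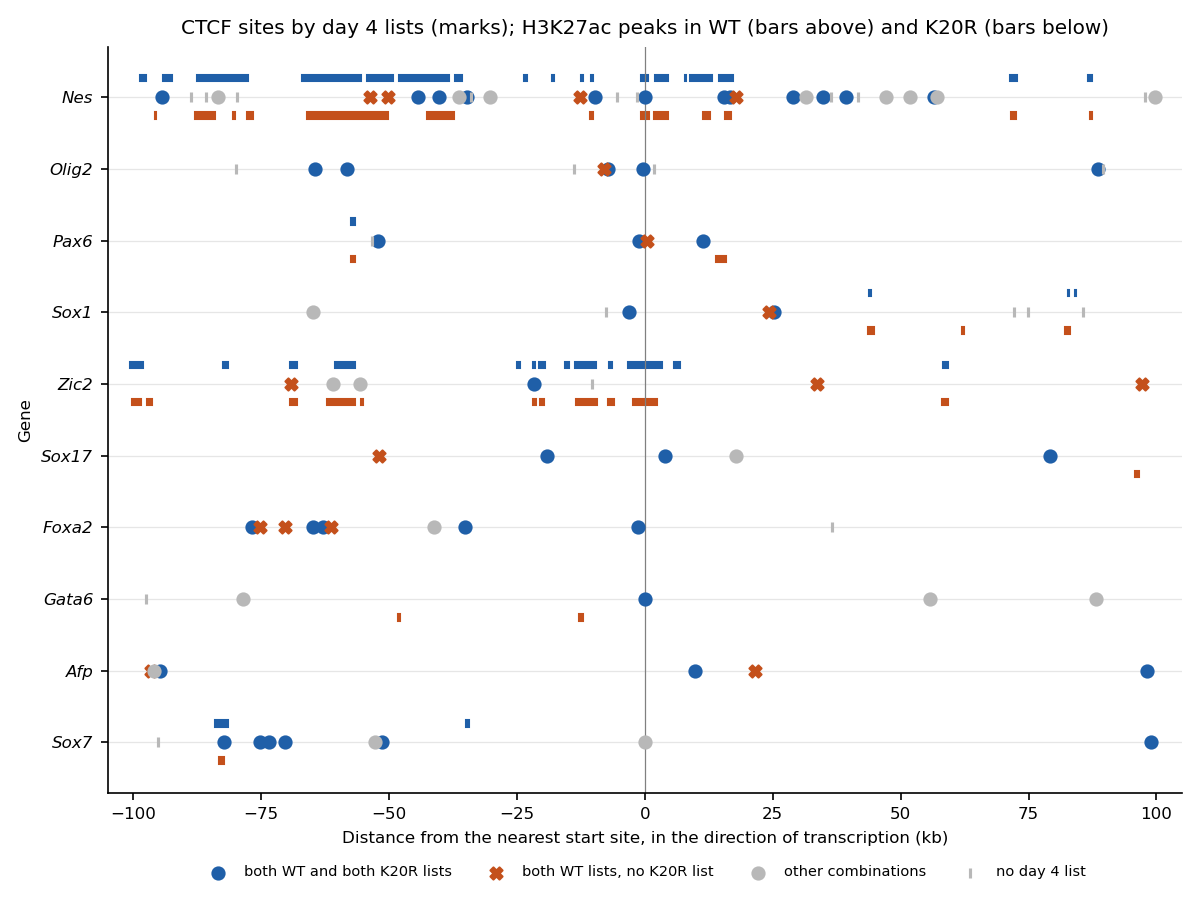
Position of the 98 merged CTCF sites (marks) by distance from the nearest start site of their gene in kb (x axis, downstream to the right), marked by their presence in the day 4 lists, with H3K27ac peaks of WT (blue bars above each line) and K20R (orange bars below). Crosses are the 16 sites in both WT lists and no K20R list, and bars crowd around Nes and Zic2 while Olig2, Foxa2 and Afp have none.

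The lost sites were weak in WT. At day 4 the mean WT fold enrichment of the 16 lost sites ran from 4.77 to 11.4 with a median of 6.54, and their WT pile-ups from 7 to 23 fragments with a median of 12.5. The 41 sites kept in all 4 lists ran from 5.22 to 55.2 with a median of 23.3, and from 10 to 103 fragments with a median of 51. The ranges overlap between 5.22 and 11.4, so weak sites were found in both classes. Over the genome the medians were 6.55 for 10345 lost sites and 19 for 38295 kept sites, close to those near the 10 genes. At day 0 the 7 lost sites ran from 5.47 to 10.0 with a median of 8.88, and the 41 kept sites from 8.24 to 51.2 with a median of 19.8. Strength and absence come from the same peak calls, so they are not independent measures.

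**Figure D3:**
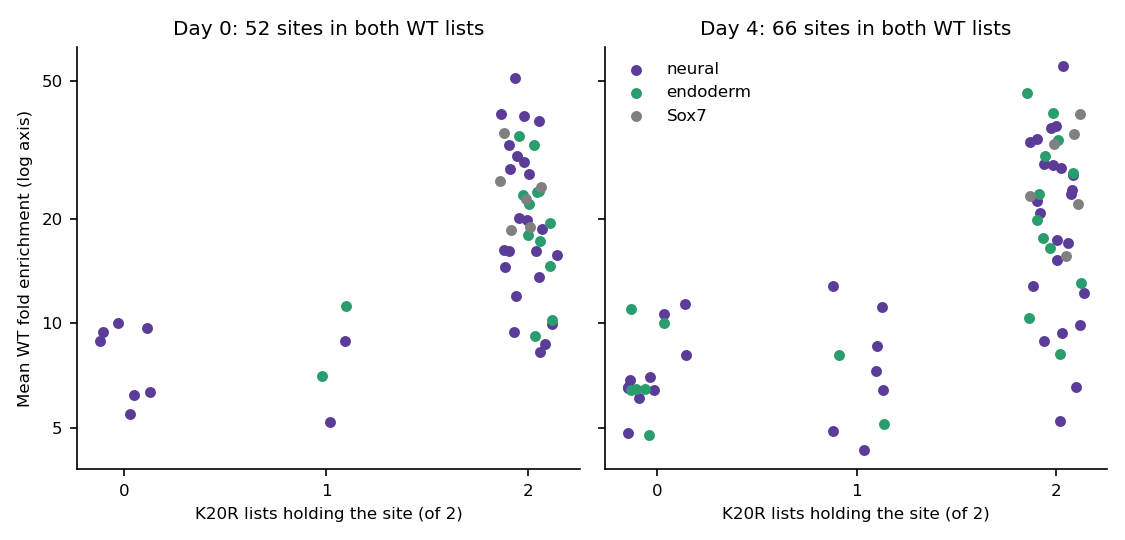
Mean WT fold enrichment (y axis, log scale) of each site that both WT lists held, by the number of K20R lists that held it (x axis), at day 0 (52 sites) and day 4 (66 sites), coloured by lineage with Sox7 in grey. At day 4 the 16 sites in no K20R list lie between 4.77 and 11.4, and the strongest of the 41 sites in both lists reaches 55.2.

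In the lists as deposited, differentiation of WT cells added sites near these genes and removed none. Of the 66 sites in both WT day 4 lists, 7 were in neither WT day 0 list (10.6%; genome 3.81%), and 0 of the 52 sites of day 0 were lost by day 4 (genome 5.75%). The added sites were Nes sites 14, 21 and 29, Pax6 site 4, Sox1 site 1 and Foxa2 sites 5 and 8, with mean fold enrichments of 4.31 to 11.1 at day 4. At day 4, 5 of the 7 were in no K20R list (Nes sites 14 and 21, Pax6 site 4, Foxa2 sites 5 and 8). Nes site 29 and Sox1 site 1 were each in 1 K20R list. The 7 added sites were weak, with a median fold enrichment of 6.45 against 5.98 for all 2098 sites added in WT. The share of those 2098 sites that K20R lists lacked was not counted, so the 5 of 7 has no background. In K20R, 2 of 42 sites were added with differentiation (4.76%; genome 1.18%), Nes sites 8 and 20, and 2 of 44 were lost (4.55%; genome 9.1%), Zic2 site 1 and Foxa2 site 9. With lists of one length 3 sites were removed, and with windows of 50 kb 3 were added. Leaving out WT library 1 of day 0, the longest list, brought the sites added in WT to 16 and those removed to 4, and leaving out WT library 2 brought those removed to 15. A single remaining list makes presence or absence in both lists easier to meet.

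Strength was tested at the 36440 sites that all 8 lists held, of which 36 lay near the 10 genes: 9 at Nes, 5 at Olig2, 2 each at Pax6 and Sox1, 1 at Zic2, 3 at Sox17, 4 at Foxa2, 1 at Gata6, 6 at Sox7 and 3 at Afp. The other 62 sites had no value in at least 1 library, so sites that fell below calling are not in this test. The log2 fold enrichment was centred on each library's median, a single limma model was fitted over all sites, and p-values were adjusted over all sites by the Benjamini-Hochberg method with a threshold of 0.05. Each difference is therefore relative to the median site. Without centring the median K20R minus WT difference was 0.43 at day 0 and 0.16 at day 4 on the log2 scale, and the median change with differentiation was −0.32 in K20R. The spread of log2 fold enrichment over sites was also wider in K20R, with SDs of 0.945 to 1.07 against 0.622 to 0.752 in WT, and its part in the differences at single sites was not tested beyond the values after quantile normalization.

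At day 0, K20R was lower than WT at 5 of the 36 sites, where 13.9% of all sites were lower, and higher at 5, where 12% of all sites were higher. At day 4, 7 were lower (14.5% of all sites) and 5 higher (14.5%). With differentiation, 4 sites were lower and 7 higher in WT (11.5% and 9.94% of all sites), and 0 were lower and 6 higher in K20R (8.2% and 8.82%). Without the 6 Sox7 sites the counts over 30 sites were 3 lower and 5 higher on each day between genotypes. The genotype effect differed between days at 2 sites in the lower direction and 1 in the higher, where 3.95% and 4.85% of all sites did. In K20R, 4 sites were lower with differentiation at an unadjusted p under 0.05 (limma), none of which passed after adjustment. The called sites thus lay in both directions between genotypes, while with differentiation more were higher than lower. Without centring 3 of the 36 were called at day 0 and 0 at day 4 (11 at an unadjusted p under 0.05 on each day), and no called site changed direction under any alternative.

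**Figure D4:**
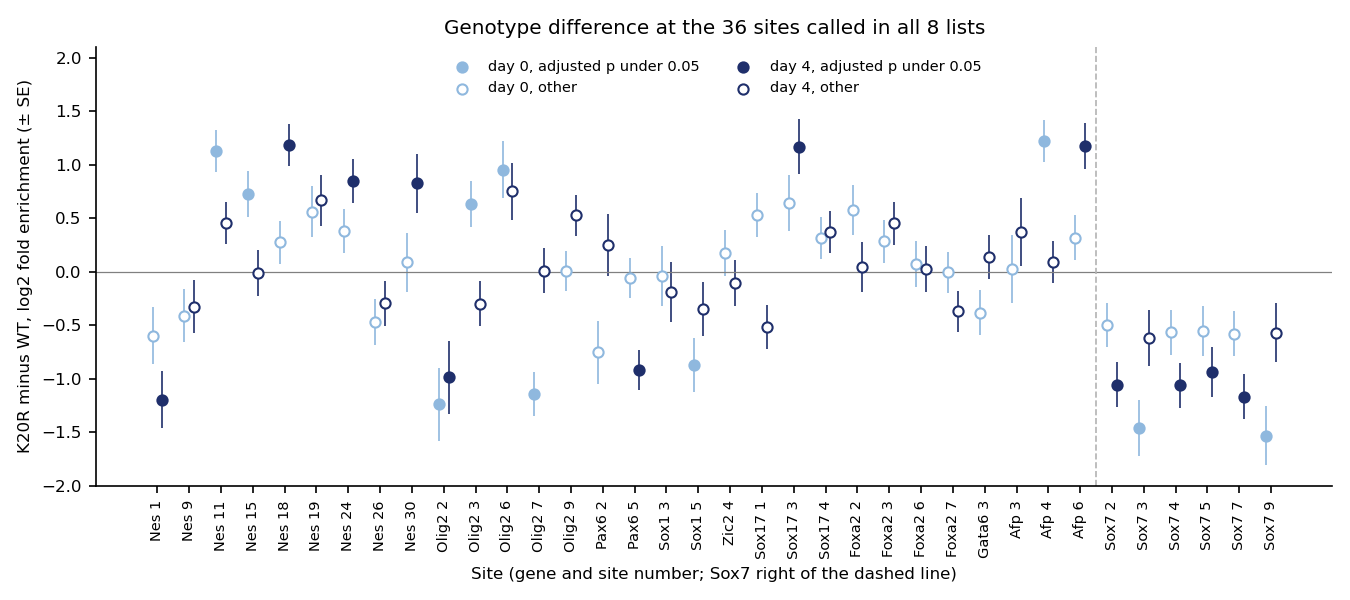
K20R minus WT difference in centred log2 fold enrichment (y axis; point with bar of ± 1 SE from limma, 2 libraries per group) at day 0 (light) and day 4 (dark) for the 36 sites that all 8 lists held, filled where the adjusted p is under 0.05. The 30 sites left of the dashed line lie on both sides of 0, and the 6 Sox7 sites lie under 0 on both days.

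Nes encodes nestin, an intermediate filament of neural progenitors (chr3:87971078-87980451, plus strand), and held 33 sites, of which 9 were in all 8 lists and 10 in a single list. For 29 of the 33 the start of another protein-coding gene is nearer than that of Nes, namely Bcan, Prcc, Rrnad1, Hapln2, Mrpl24, Crabp2 or Ttc24. The site over the Nes start (site 18, chr3:87969823-87971196) was under H3K27ac of both genotypes. Its fold enrichment was 46.8 and 33.8 in WT and 68.6 and 63.2 in K20R at day 0, while the day 4 values were 21.03 and 23.98 in WT and 44.4 and 70.8 in K20R. The day 4 WT libraries were the lowest of all and did not overlap with any other group. The day 4 difference between genotypes was 1.18 (SE 0.20, adjusted p = 0.00202) and the fall in WT with differentiation was −0.81 (SE 0.20, adjusted p = 0.0151, lost under 5 of 9 alternatives), while K20R changed by 0.10 (SE 0.20, adjusted p = 0.748). The difference between the 2 genotype effects was 0.91 (SE 0.28, adjusted p = 0.0619), which misses the threshold, and after quantile normalization 0.93 (adjusted p = 0.0426).

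Nes site 11, in an intron of Isg20l2 34.801 kb upstream, had fold enrichments of 23.0 and 14.6 in WT and 51.9 and 57.7 in K20R at day 0, and 36.5 and 37.0 against 40.8 and 75.0 at day 4. K20R was higher on both days without overlap, by 1.13 at day 0 (SE 0.19, adjusted p = 0.00284) and by 0.46 at day 4 (SE 0.19, adjusted p = 0.0969). Site 15, 9.683 kb upstream, was at 38.1 and 27.5 in WT and 69.9 and 76.7 in K20R at day 0 (difference 0.72, SE 0.22, adjusted p = 0.0289, but 0.130 after quantile normalization and lost under 6 of 9 alternatives), and at 34.1 and 34.1 against 25.5 and 54.3 at day 4. Site 19, 15.518 kb downstream, was the strongest near any of the 10 genes. Its values were 54.8 and 47.5 in WT and 103 and 104 in K20R at day 0, and 59.3 and 51.2 against 65.5 and 141 at day 4, and after centring neither difference passed (adjusted p = 0.101 and 0.0540). At the far upstream site 1, in an intron of Prcc, K20R was the lower genotype at day 4, with 3.99 and 5.24 against 12.5 and 7.28 in WT (difference −1.20, SE 0.26, adjusted p = 0.00699).

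Weaker Nes sites differed in presence. Site 20, in an intron of Bcan, was at 5.97 and 6.44 in WT at day 0 and absent from K20R, and at day 4 at 13.7 and 11.95 in WT and 6.83 and 9.90 in K20R. Site 23 was at 10.4 and 8.54 in WT at day 0 and absent from K20R, and at 13.4 and 12.2 in WT at day 4 with 5.82 in K20R library 2 alone. Site 10 was at 4.90 and 6.03 in WT at day 0 and at 4.31 in WT library 1 of day 4, with no K20R peak. These 3 sites made up the day 0 losses of Nes.

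Those lost at day 4 were Nes sites 6, 7, 14 and 21. Site 7, in an intron of Mrpl24, was at 11.3 and 6.53 in WT and at 4.53 in K20R library 2 at day 0, and at 12.2 and 10.6 in WT only at day 4. Site 6 was at 12.1 in WT library 1 at day 0 and at 5.95 and 8.10 in WT at day 4. Site 14, between genes 12.754 kb upstream, was at 5.57 and 6.59 in WT day 4 libraries alone, and site 21, in a coding exon of Bcan (the brain proteoglycan brevican), at 6.84 and 6.26. In the other direction, site 8 was at 9.93 in WT library 1 of day 0, and at day 4 at 10.6 and 8.13 in WT and 5.90 and 8.66 in K20R. Site 29 was at 4.06 and 4.56 in WT and 3.68 in K20R library 2 at day 4 only, and site 17, 1.582 kb upstream of the start, at 7.20 in WT library 1 of day 0 only.

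Olig2, a basic helix-loop-helix factor of motor neuron and oligodendrocyte progenitors (chr16:91225457-91228677, plus strand), held 10 sites, of which 5 were in all 8 lists. The site 0.39 kb upstream of its start (site 7, chr16:91224486-91225067) was at 26.5 and 13.7 in WT and 13.8 and 10.2 in K20R at day 0, while the day 4 values were 12.5 and 11.9 in WT and 10.2 and 18 in K20R. WT library 1 of day 0 stood above the other 7 libraries, and the groups overlapped on both days before centring. After centring K20R was lower at day 0 by −1.14 (SE 0.21, adjusted p = 0.00345; −0.69 and adjusted p = 0.302 without centring), and differed by 0.01 at day 4 (SE 0.21, adjusted p = 0.977). The change of the genotype effect between days was 1.15 (SE 0.30, adjusted p = 0.0349).

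Olig2 site 5, 8.016 kb upstream, was in all 4 WT lists at 10.9, 9.16, 9.12 and 12.2 and in no K20R list. Its neighbour site 6, 7.155 kb upstream, was in all 8 lists at 23.5 and 8.92 in WT and 34.9 and 42.3 in K20R at day 0, and 12.2 and 18.3 against 20.8 and 36.7 at day 4. K20R was higher without overlap there on both days, by 0.95 at day 0 (SE 0.27, adjusted p = 0.0218) and 0.75 at day 4 (SE 0.27, adjusted p = 0.0514). The day 0 call was lost under 4 of 9 alternatives. Site 2, 64.444 kb upstream, went the other way, at 17.0 and 14.6 in WT and 6.23 and 13.4 in K20R at day 0, and 18.8 and 28.5 against 10.8 and 15.1 at day 4. K20R was lower by −1.24 (SE 0.34, adjusted p = 0.02) and −0.99 (SE 0.34, adjusted p = 0.0459). Both calls depended on the processing: after quantile normalization the adjusted p was 0.0959 and 0.116, and the calls were lost under 5 and 7 of 9 alternatives. The strongest Olig2 site, site 9 in an intron of the noncoding Gm15966 88.545 kb downstream, was at 32.8 and 21.2 in WT and 36.6 and 35.97 in K20R at day 0, and at 20.0 and 21.7 against 24.9 and 43.8 at day 4, with neither difference past the threshold after centring (adjusted p = 0.987 and 0.0555). Site 8, in an untranslated exon of Olig2, was at 3.31 in WT library 2 of day 0 only.

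Pax6, a paired-box factor of the neural tube, eye and pancreas (chr2:105668900-105697364, plus strand, 8 annotated start sites), held 5 sites, of which 2 were in all 8 lists, and the largest gain with WT differentiation. Site 5, in a Pax6 intron 11.349 kb downstream of the nearest start (chr2:105687478-105688163), was at 10.4 and 7.05 in WT and 11.2 and 11.3 in K20R at day 0, while the day 4 values were 29.6 and 27.9 in WT and 13.7 and 20.4 in K20R. The day 4 libraries lay above all day 0 libraries in both genotypes, and WT lay above K20R at day 4 without overlap. The rise was 1.77 in WT (SE 0.19, adjusted p = 0.00114) and 0.90 in K20R (SE 0.19, adjusted p = 0.00976). The WT rise kept its call under all 9 alternatives, and the K20R rise lost it under 3 of 9 (log2 difference down to 0.57). K20R was lower at day 4 by −0.92 (SE 0.19, adjusted p = 0.00518) and differed by −0.06 at day 0 (SE 0.19, adjusted p = 0.847). The change of the genotype effect, −0.86 (SE 0.27, adjusted p = 0.0662), missed the threshold and passed it after quantile normalization (−1.33, adjusted p = 0.0161).

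Pax6 site 2, in an intron of the antisense transcript Pax6os1 52.169 kb upstream (chr2:105616095-105616731), also rose. It was at 8.995 and 10.9 in WT and 6.97 and 9.28 in K20R at day 0, and at 17.1 and 17.1 in WT and 18.2 and 27.4 in K20R at day 4. Here all 4 day 4 libraries lay above all 4 day 0 libraries. The rise was 1.81 in K20R (SE 0.29, adjusted p = 0.00389) and 0.81 in WT (SE 0.29, adjusted p = 0.0685), and the genotypes did not differ past the threshold on either day (adjusted p = 0.0776 and 0.548). Site 4, in an untranslated exon of Pax6 0.456 kb past a start (chr2:105672316-105672518), was at 7.09 and 6.59 in the WT day 4 libraries and in no other list. Site 3, 1.065 kb upstream, was at 3.57 in WT library 1 and 6.39 in K20R library 1 at day 0, and at 4.75 and 5.69 in WT and 6.83 and 6.08 in K20R at day 4.

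Sox1, an early marker of the neural plate (chr8:12395295-12400126, plus strand), held 8 sites, of which 2 were in all 8 lists and 4 were in WT library 1 of day 0 alone. Site 3, 3.199 kb upstream and the strongest, was at 31.4 and 29.4 in WT and 44.2 and 37.1 in K20R at day 0, and 24.4 and 29.3 against 15.9 and 41.8 at day 4, and no comparison passed (adjusted p = 0.931 and 0.642 between genotypes). Site 5, 25.183 kb downstream in an intron of the overlapping transcript Sox1ot, was at 25.3 and 14.3 in WT and 13.8 and 14.8 in K20R at day 0, and at 9.12 and 8.61 against 4.55 and 12.8 at day 4. WT fell by 1.09 on the log2 scale (SE 0.25, adjusted p = 0.0126), and K20R was lower at day 0 by −0.87 (SE 0.25, adjusted p = 0.0263) although the raw values overlap. The day 0 call was lost under 7 of 9 alternatives (adjusted p up to 0.557, and 0.0811 after quantile normalization), and the WT fall under 5 of 9. Site 4, 24.161 kb downstream, was in all 4 WT lists at 8.63, 4.01, 4.56 and 5.07 and in no K20R list. Site 1, 64.876 kb upstream, was at 12.1 and 10.2 in WT at day 4 and at 4.06 in K20R library 1 of that day.

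Zic2, a zinc finger factor of the neural plate and forebrain (chr14:122475435-122479852, plus strand, outside the chromosome 14 stretch of lower signal), held 7 sites and had losses at 4 of them. Site 4, 21.649 kb upstream under H3K27ac of both genotypes, was the only one in all 8 lists. It was at 32.6 and 23.1 in WT and 40.1 and 45.0 in K20R at day 0, and 28.9 and 38.0 against 24.9 and 45.8 at day 4, and neither difference passed (adjusted p = 0.580 and 0.734). Site 6, 33.616 kb downstream, was in all 4 WT lists at 13.4, 6.03, 8.65 and 7.52 and in no K20R list. Site 3 was at 9.19 and 8.57 in WT at day 0 and absent from K20R, and at 4.07 and 5.69 in WT and 5.24 in K20R library 2 at day 4. Site 1, in an intron of Gm5089, was at 10.5 and 6.02 in WT and 5.23 and 5.80 in K20R at day 0, and at 6.08 and 6.97 in WT only at day 4. Site 7, in an intron of Pcca, was at 5.54 in WT library 1 of day 0 and at 6.27 and 6.59 in WT at day 4. No Zic2 site lay nearer to the Zic2 start than to that of another protein-coding gene.

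**Figure D5:**
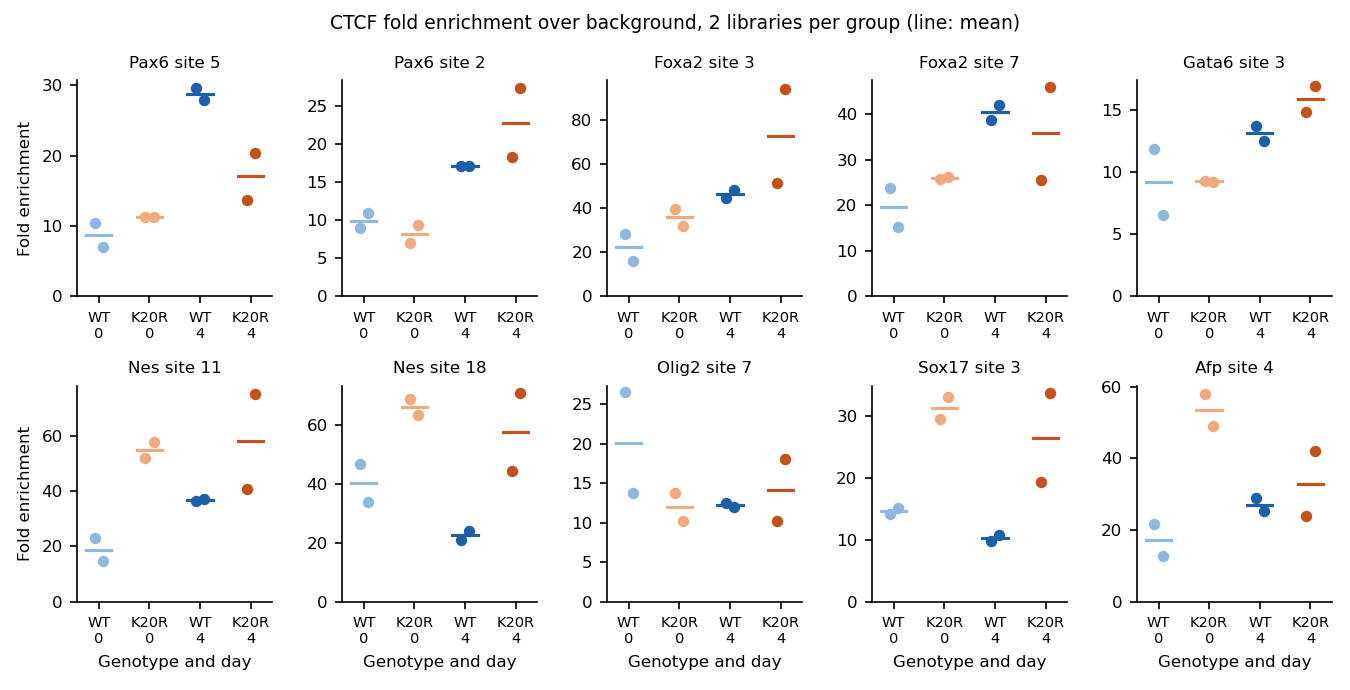
Fold enrichment over background (y axis, from 0) in each library (points, 2 per group; lines are means) at 10 sites that all 8 lists held, by genotype and day (x axis). The WT day 4 points of Pax6 site 5 stand at 29.6 and 27.9 above every other group, and those of Nes site 18 at 21.03 and 23.98 under every other group.

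Sox17, an HMG-box factor that specifies definitive endoderm (chr1:4490931-4497354, minus strand), held 5 sites, of which 3 were in all 8 lists. Site 3 lies in a coding exon of Sox17 itself, 3.895 kb downstream of the nearest start. It was at 14.2 and 15.1 in WT and 29.6 and 33.1 in K20R at day 0, and at 9.90 and 10.9 in WT and 19.4 and 33.8 in K20R at day 4. K20R was above WT in all 4 libraries on both days, by 0.64 at day 0 (SE 0.26, adjusted p = 0.0858) and 1.17 at day 4 (SE 0.26, adjusted p = 0.00715). Site 1, 79.289 kb downstream and the strongest, was at 31.8 and 16.5 in WT and 45.9 and 44.7 in K20R at day 0, and 26.8 and 34.2 against 17.5 and 30.8 at day 4. Its genotype difference was 0.53 at day 0 (SE 0.20, adjusted p = 0.0760) and −0.52 at day 4 (SE 0.20, adjusted p = 0.0757), and the change between days was −1.04 (SE 0.29, adjusted p = 0.0447). Site 5, 51.993 kb upstream, was at 5.75 in WT library 1 of day 0 and at 4.496 and 5.05 in WT at day 4, with no K20R peak.

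Foxa2, a forkhead pioneer factor of endoderm, node and floor plate (chr2:148042877-148046969, minus strand), held 10 sites, of which 4 were in all 8 lists, and its start was nearest for all 10. Site 3, 35.146 kb upstream (chr2:148082115-148082622), was at 28.2 and 16.1 in WT and 39.6 and 31.9 in K20R at day 0, while the day 4 values were 44.6 and 48.1 in WT and 51.2 and 94.4 in K20R. All day 4 libraries lay above all day 0 libraries, with a rise of 1.14 in WT (SE 0.20, adjusted p = 0.00422) and 1.30 in K20R (SE 0.20, adjusted p = 0.00331), and a difference between these rises of 0.17 (SE 0.28, adjusted p = 0.746). Site 7, 64.841 kb upstream, was at 23.8 and 15.3 in WT and 25.8 and 26.2 in K20R at day 0, and at 38.7 and 42.1 against 25.6 and 46.0 at day 4. WT rose there by 1.10 (SE 0.19, adjusted p = 0.00416) and K20R by 0.74 (SE 0.19, adjusted p = 0.0230), although K20R library 1 of day 4 lay under both day 0 K20R libraries before centring.

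The site nearest the Foxa2 start, site 2 at 1.394 kb upstream, was at 25.8 and 21.3 in WT and 52.5 and 43.5 in K20R at day 0, and 30.8 and 37.0 against 26.2 and 55.6 at day 4, with no comparison past the threshold (adjusted p = 0.0921 and 0.908 between genotypes). Sites 5 and 8, 61.377 and 70.414 kb upstream, appeared in the WT day 4 libraries only, at 6.11 and 6.79 and at 6.78 and 6.11. Site 9, 75.195 kb upstream, was at 10.4 in WT library 1 and 6.19 and 4.81 in K20R at day 0, and at 10.6 and 9.47 in WT only at day 4. The K20R rise at site 7 was lost under 6 of 9 alternatives (log2 difference down to 0.40, adjusted p up to 0.678, and 0.0777 after quantile normalization). Sites 5, 8 and 9 were the 3 Foxa2 sites lost in K20R at day 4.

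Gata6, a GATA factor of primitive and definitive endoderm (chr18:11052064-11085635, plus strand), held 5 sites, of which site 3, over its start, was the only one in all 8 lists. Site 3 was at 11.8 and 6.53 in WT and 9.29 and 9.17 in K20R at day 0, and at 13.7 and 12.5 in WT and 14.8 and 16.9 in K20R at day 4. All day 4 libraries lay above all day 0 libraries, and the rise was 1.11 in K20R (SE 0.21, adjusted p = 0.00623) and 0.59 in WT (SE 0.21, adjusted p = 0.0631). The K20R call was lost under 3 of 9 alternatives. The genotypes did not differ past the threshold (adjusted p = 0.194 at day 0 and 0.647 at day 4). No Gata6 site was lost or gained in any comparison, and the strongest by mean, site 2 at 78.483 kb upstream, was at 13.6 and 6.84 in WT and 19.2 and 19.7 in K20R at day 0 and at 6.59 in WT library 2 and 9.03 and 8.23 in K20R at day 4.

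Afp, the fetal serum protein alpha-fetoprotein of yolk sac and liver (chr5:90490737-90508907, plus strand), held 6 sites, of which 3 were in all 8 lists. Site 4 lies in an Afp intron 9.784 kb downstream of the start. It was at 21.6 and 12.8 in WT and 58.1 and 48.9 in K20R at day 0, and at 28.9 and 25.3 in WT and 23.8 and 42.0 in K20R at day 4. The day 0 genotypes stood apart, with a difference of 1.22 (SE 0.20, adjusted p = 0.00216), the day 4 genotypes overlapped (0.09, SE 0.20, adjusted p = 0.755), and the change between days was −1.13 (SE 0.28, adjusted p = 0.0309). Site 6, 98.162 kb downstream and the strongest, was at 38.6 and 30.9 in WT and 54.0 and 64.4 in K20R at day 0, and 19.7 and 20.0 against 39.9 and 60.6 at day 4. K20R was higher without overlap on both days, by 0.32 (SE 0.21, adjusted p = 0.291) and 1.17 (SE 0.21, adjusted p = 0.00290). Sites 1 and 5 were lost at day 4, at 6.59 and 6.26 and at 11.2 and 10.8 in WT, after 4.00 and 6.91 in WT library 1 of day 0 alone.

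A match to the motif, at a score that 5% of windows shifted by 1000 bp reached, lay within 100 bp of the summit at 79 of the 98 sites (80.6%, 95% Wilson interval 71.7 to 87.2) and at 77.0% of all sites. Near the 10 genes the share was 14 of 16 sites lost at day 4 and 36 of 41 kept sites, and over the genome it was 71.0% and 90.3%. At a score that 1% of shifted windows reached, 5 of the 16 lost sites and 21 of the 41 kept sites had a match. Over the genome these shares were 28.4% and 63.5%. The share of the 98 sites was 35.7% and that of all sites 41.9%. Both strands were scored, and a match describes the letters in the window and not a bound site. Among the matches, 32 of 79 were masked as repeats (40.5%; all sites 43.6%), and 5 of 32 at sites in all 8 lists (genome 29.9%). The numbers were 6 of 14 at sites lost at day 4 (genome 45.0%) and 6 of 36 at kept sites (genome 30.3%). The same 19 bases, ACACCAGAAGAGGGCATCA, were the match at 8 sites (Nes sites 5, 6, 12, 17, 25, 27 and 28 and Sox1 site 8) and at 2745 sites of the genome (3.17%). Over the genome this match made up 8.42% of sites in a single list and 0.165% of sites in all 8 lists. The site over the Gata6 start had no match at either score.

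H3K27ac peaks at day 4 lay mostly near Nes and Zic2 in both genotypes. The neural genes had 35 peaks covering 82.579 kb in WT and 29 peaks covering 62.797 kb in K20R, and the endoderm genes 2 and 4 peaks. Without Sox7 the endoderm genes had 0 peaks in WT and 3 in K20R. Most peaks near Nes and Zic2 lay nearer to the start of another protein-coding gene in both genotypes. The WT peaks of 10.013, 11.347, 5.079 and 9.756 kb near Nes had Prcc, Hdgf, Mrpl24 and Rrnad1 as the nearest start. With 1 library of each genotype there is no test. Of the 37 WT peaks near the 10 genes 13 had no overlapping K20R peak (35.1%; all WT peaks 36.9%), and of the 33 K20R peaks 8 had no WT peak (24.2%; all K20R peaks 46.9%). Nearly all unshared peaks were weak. Among peaks with a −log10 q of at least 5, 14 in WT and 12 in K20R, 0 WT peaks and 1 K20R peak were unshared. That peak lay in a Pax6 intron 13.976 kb downstream of a start, with a fold enrichment of 4.65, a −log10 q of 5.12 and a width of 1.786 kb, and is the widest of Pax6 in K20R. The unshared share of all peaks of that strength in the whole lists was not counted, so these numbers have no background.

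Nes had 18 peaks over 55.623 kb in WT and 13 over 35.191 kb in K20R. The peak over its start had a fold enrichment of 3.90 in WT and 3.57 in K20R, and a peak inside the gene, 1.903 kb and 1.704 kb from the start, 9.14 and 10.97. Its widest peaks spanned 11.347 kb in WT and 15.920 kb in K20R around Hdgf, 55.600 and 50.222 kb upstream, with fold enrichments of 13.3 and 8.61. That K20R peak overlapped both this WT peak and the next one, of 5.079 kb, so these widths are not of matching stretches. Zic2 had 13 peaks over 25.203 kb in WT and 11 over 22.638 kb in K20R. The peak over the Zic2 start was 6.795 kb wide at 7.89-fold in WT and 4.738 kb wide at 6.70-fold in K20R, and the widest K20R peak spanned 5.594 kb at 16.7-fold, 56.624 kb upstream.

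Sox1 had 3 peaks in each genotype, all at least 43.663 kb downstream, the widest 0.554 kb in WT and 1.133 kb in K20R. Pax6 had 1 peak in WT, 0.676 kb wide at 2.73-fold, and 2 in K20R. Olig2, Foxa2 and Afp had no peak in either genotype. Sox17 had 1 peak in K20R (0.885 kb wide, 2.94-fold, 95.718 kb downstream in Rp1) and Gata6 had 2 in K20R, the wider 0.909 kb at 3.30-fold, 12.030 kb upstream. Within 3 kb of a start, 2 of 5 neural genes (Nes and Zic2) and 0 of 5 endoderm genes had a peak, the same in both genotypes.

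Further regulators of each lineage, 25 a list, were set beside these genes. The lists are not fully separate from the 10 genes. In the neural list Zic5 is a neighbour of Zic2 and Olig1 of Olig2, and in the endoderm list Alb is a neighbour of Afp. Sites near these genes can count in both. In the neural list 6 genes had H3K27ac within 3 kb of a start in both genotypes, Hes5, a Notch target of neural progenitors, in WT only at 9.85-fold, Hesx1, a forebrain homeobox factor, in K20R only at 2.92-fold, and 17 in neither. In the endoderm list 6 had it in both, 4 in WT only (Cer1, Ttr, Gsc and Lhx1, at 2.75-fold to 4.56-fold), 2 in K20R only (Apoa1 at 3.18-fold and Cubn at 2.96-fold) and 13 in neither. These names were chosen after their values were seen. CTCF sites lost at day 4 made up 31 of 187 sites of the neural list (16.6%) and 45 of 209 of the endoderm list (21.5%). Near the 10 genes the shares were 25% and 23.1%, or 30% for the endoderm genes without Sox7, and over the genome 18.8%. Gains numbered 0 in both lists at day 4. At day 0, 9.36% and 8.25% of their sites were lost. List genes on chromosome 14, such as Otx2 and Gata4, were counted with the rest, whether or not they lie in the stretch of lower signal. Within 3 kb of a start, a site lost at day 4 lay at Six3, a factor of forebrain and eye, and at no other gene of these lists.

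Sox7, an HMG-box factor of primitive endoderm and early vessels (chr14:63943673-63950732, plus strand), held 9 sites, of which 6 were in all 8 lists, and 5 of those 6 lie in introns of the neighbour Pinx1. It had 8 and 6 peaks in WT and 6 and 6 in K20R at day 0, and 7 and 7 against 6 and 6 at day 4. None of its sites was lost or gained on either day. Its 6 shared sites were lower in K20R on both days after centring, with median differences of −0.57 at day 0 and −0.996 at day 4. The 449 other sites of the stretch between 40 and 70 Mb had medians of −0.55 and −0.50, with 84.0% and 80.6% of them lower. The rest of chromosome 14 (787 sites) had medians of −0.04 and −0.03, other chromosomes −0.02 and 0.03, and the 30 sites of the other 9 genes 0.13 and 0.07, with 11 and 12 of 30 lower. The part of the stretch in the Sox7 values was not tested.

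Single Sox7 sites passed the threshold on 1 day each. Site 4, the strongest, was at 42.6 and 28.3 in WT and 34.9 and 29.6 in K20R at day 0, which overlap, and at 37.0 and 43.3 against 14.7 and 30.1 at day 4, which do not. Site 7 was at 29.4 and 20.1 against 20.9 and 23.7 at day 0, and at 36.5 and 34.2 against 15.7 and 18.8 at day 4, a difference of −1.17 (SE 0.21, adjusted p = 0.00277). Site 2 was at 23.9 and 14.1 against 16.8 and 18.9 at day 0, and at 29.4 and 36.5 against 12.5 and 23.9 at day 4. Sites 2, 4 and 5 were lower at day 4 by −1.06, −1.06 and −0.94 (adjusted p = 0.00406, 0.00433 and 0.0123), and after quantile normalization site 5 no longer passed (adjusted p = 0.0664).

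Sox7 sites 3 and 9 were lower at day 0, by −1.47 (SE 0.26, adjusted p = 0.00322) and −1.53 (SE 0.28, adjusted p = 0.00335). Site 3 was at 24.2 and 13.1 in WT and 12.2 and 6.38 in K20R at day 0, and at 15.7 and 15.7 against 8.63 and 14.6 at day 4. Site 9, 98.875 kb downstream, was at 22.7 and 22.9 in WT and 9.17 and 12.8 in K20R at day 0, and at 22.3 and 24.3 against 15.9 and 18.6 at day 4. K20R lay under WT without overlap on both days at both sites. Site 8, 0.076 kb upstream of the Sox7 start, was at 3.99 in WT library 1 of day 4 only. H3K27ac near Sox7 had 2 peaks in WT and 1 in K20R, the widest 2.713 kb at 6.52-fold in WT and 0.963 kb at 4.75-fold in K20R, both in an intron of Pinx1 and none within 3 kb of the Sox7 start.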

How the data were processed

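CTCF ChIP-seq of 8 libraries and H3K27ac ChIP-seq of 2 were used as deposited peak lists, and the 4 input samples were not analysed here. The study calls its replicates biological. The submitters' processing notes and methods name Trim Galore, Bowtie2, MACS2 and deepTools with mm10. The authors brought the CTCF libraries to one read number and called narrow peaks for CTCF and broad peaks for H3K27ac. The input used for each library is not given in the sources used here. The deposited fold enrichment is a ratio of pile-up to local background, and the deposited −log10 p-values and −log10 q-values are those of MACS2. The score column that the authors deposited was not used.

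Overlapping CTCF peaks were merged into sites, and the peak of a library with the smallest p-value gave its value at a site. Sites and peaks were assigned by their nearest edge to start sites of the basic GENCODE M21 annotation, and coordinates are 1-based. The members and gene lists were chosen with earlier results of these data known. Fragment numbers are whole numbers recovered from fold enrichment and p-value together. Log2 fold enrichment, centred per library, was fitted with limma 3.58.1 (R 4.3.3) over the sites of all 8 lists in one model of 4 groups without a replicate block, and was tested on simulated data. Peak numbers were compared by exact permutation. Named with values were sites lost or gained, sites within 3 kb of a start, the strongest site per gene, H3K27ac peaks within 3 kb of a start and the widest per gene and genotype, and other called sites the text turns on. Alternatives were lists of one length, a −log10 q of at least 5, 50 kb windows, merged summit windows of 500 bp, H3K27ac peaks of at least 1 kb, leaving out Sox7 or each library, a replicate block, quantile normalization, no centring, the −log10 p in place of the fold, sites called in the lists of the compared groups alone, and a stricter motif score or narrower motif window. Same-numbered libraries did not deviate together (r = −0.026, 0.028, 0.018 and −0.034). Python 3.11.15, pandas 2.3.3, NumPy 2.4.6, SciPy 1.17.1, pysam 0.24.0, samtools 1.23.1 and matplotlib 3.10.9 were used.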

Additional observations from a re-analysis of the deposited data

Results flagged for a closer look

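At 3 of the 36 sites the genotype effect on fold enrichment differed between day 4 and day 0 by the interaction term of the limma model, adjusted over all sites. It was lower at day 4 at 2 of them and higher at 1, where 3.95% and 4.85% of all 36440 sites were. At Olig2 site 7, 0.39 kb upstream of the Olig2 start, the effect was higher at day 4 by 1.15 (SE 0.30, adjusted p = 0.0349). At Sox17 site 1, 79.289 kb downstream of Sox17, it was lower by −1.04 (SE 0.29, adjusted p = 0.0447), and at Afp site 4, in an Afp intron, by −1.13 (SE 0.28, adjusted p = 0.0309). Across 12 alternatives each kept its direction. Olig2 site 7 ranged from 0.83 to 1.35 and passed under 3 alternatives (adjusted p from 0.0199 to 0.709), Sox17 site 1 from −1.36 to −0.34 and under 2 (0.0451 to 0.740), and Afp site 4 from −1.45 to −0.58 and under 3 (0.0144 to 0.519). None of the 3 passed without centring.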

How the results depend on the processing

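Of the counts and differences that answer a comparison, 106 values under alternatives stayed within the limits set, 53 moved and 3 reversed. Of the values at single called sites, 236 kept their call, 151 lost it and 0 reversed. The genotype effect on peak number between days, −3, reversed to 1.5 with lists of one length (p = 0.667, exact permutation), to 2.5 with 50 kb windows (p = 0.944, exact permutation) and to 7.5 without WT library 2 of day 0. Lists of one length gave 2 sites lost and 1 gained in K20R at day 0, 5 lost and 1 gained at day 4, 3 lost with differentiation in WT and 1 in K20R. Windows of 50 kb gave 7 lost at day 4, 3 gained with differentiation in WT and 0 lost in K20R. Called members in the fit (10, 12, 11, 6 and 3 for day 0, day 4, WT differentiation, K20R differentiation and the change of genotype effect) were 3, 0, 1, 1 and 0 without centring, and 6 at day 0, 1 in WT differentiation and 0 for the change of effect with the −log10 p. Quantile normalization gave 18 in WT differentiation and 7 for the change of effect. A motif score that 1% of shifted windows reached gave 35.7% of sites. The cause of these shifts was not tested.

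Leaving out 1 library at a time, the remaining list of a group suffices for a call, so counts of sites rise by construction. Peak differences ranged from −30 to −9 at day 0, −24.5 to −20.5 at day 4 and −13.5 to 7.5 for the change between days. Sites lost in K20R ranged from 8 to 28 at day 0 (12 without WT library 1, 28 without WT library 2) and 19 to 22 at day 4, and gained from 0 to 3 and 0 to 1. Sites lost with differentiation in WT ranged from 1 to 15 and gained from 7 to 16, and in K20R from 3 to 6 and 3 to 6. Over the libraries of the groups compared, called members ranged from 5 to 10 (day 0), 7 to 11 (day 4), 5 to 10 (WT differentiation), 3 to 7 (K20R differentiation) and 0 to 1 (change of effect). Without a library of the other groups, which enters only through the shared spread, the first 4 were 9 to 12, 12 to 13, 11 to 13 and 6 to 8. With the replicate number as a block the peak differences were −19.5 and −22.5 (exact permutation p = 0.5 each), and 11, 14, 13, 8 and 3 members were called, each within 1.5 times the unblocked count. H3K27ac has 1 library per genotype, so its differences have no replicate check.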
